A study of Mus musculus with 27 samples.

Results

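Minocycline was compared between 2 brain regions of stressed mice, asking for each gene whether the difference between drug-treated and untreated animals was the same in the hippocampus (HC) as in the prefrontal cortex (PFC). The measure was the interaction, the log2 fold change from CUMS to CUMS_M in HC minus that in PFC. A value below 0 means a lower signed log2 fold change in HC than in PFC, whatever the size of either. It used 11 of the 27 libraries of the series: 3 of HC CUMS_M, 3 of HC CUMS, 3 of PFC CUMS_M and 2 of PFC CUMS. CUMS is chronic unpredictable mild stress, a schedule of changing mild stressors. CUMS_M is the same stress with minocycline, a tetracycline antibiotic. Every library was strand-specific polyA RNA-seq of CD11b+ cells, isolated by flow sorting, from mice of the strain the labels write as C57BJ6, so stress, strain and the cell marker were common to the 4 groups. Dose, route, timing, age and sex are not given in the labels, and the groups carry no genetic change.

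CD11b is an integrin of the myeloid surface, and in brain tissue most cells that carry it are microglia, the resident macrophages. Microglia answer stimulation within minutes by transcribing immediate early genes, which encode transcription factors such as Fos, Jun and the Egr proteins and feedback inhibitors such as the dual-specificity phosphatases and the NF-kB inhibitors. Glucocorticoids, the adrenal hormones of the stress response, act through a nuclear receptor on a partly shared set of genes that includes the clock gene Per1.

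The 11 libraries held from 8.62 to 15.3 M counts. PFC CUMS_M held 8.62 to 11.2 M, PFC CUMS 10.6 to 12.4 M, HC CUMS 13.2 to 14.5 M and HC CUMS_M 13.3 to 15.3 M. The PFC libraries were thus shallower than the HC libraries, and the treated and untreated ranges overlapped within each region. Levels are CPM, counts scaled to a common effective library size. Microglial markers were high in all 15 libraries of the minocycline experiment: Cx3cr1, the fractalkine receptor, ran from 7560 to 9988 CPM, and Tmem119 from 3874 to 5248 CPM. The summed CPM of 20 microglial identity genes ran from 80649 to 100073. PFC CUMS_M 3 stood apart in markers of the choroid plexus, the tissue that makes cerebrospinal fluid: its Ttr, the plasma thyroid hormone carrier, was at 566 CPM, against 1.16 to 2.13 CPM in the other 4 PFC libraries of CUMS and CUMS_M. PFC CUMS_M 2 was the shallowest of the 11 libraries and the lowest in markers of other brain cells, with a mean of 0.858 log2 CPM against 1.5 to 3.38 in the other 10. The labels do not say that replicates came from separate animals, so p-values measure the spread between these samples, which may be technical. With 2 libraries, PFC CUMS limits the precision of every interaction below.

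Per1 was the single gene whose minocycline effect passed the test for a difference between regions. It was lower with the drug in HC and higher in PFC, although the PFC difference alone did not pass. Per1 encodes a repressor of the circadian clock that glucocorticoids and cAMP signalling also induce, and it lies on the plus strand at chr11:69095217-69109960 (GRCm38, GENCODE M21), with none of its exon bases shared with another annotated gene. In HC CUMS its level was 187, 187 and 194 CPM, and in HC CUMS_M it was 88.7, 97.2 and 97.0 CPM. In PFC CUMS it was 169 and 167 CPM, and in PFC CUMS_M it was 182, 265 and 210 CPM. Every drug-treated HC library was thus far below every untreated one, while every drug-treated PFC library was above both untreated ones. Of all tested genes, 4.27% were lower without overlap in HC CUMS_M and 8.98% were higher without overlap in PFC CUMS_M. The group means were 189 ± 4.03 (SD, n = 3) and 94.3 ± 4.82 (SD, n = 3) in HC, and 168 ± 1.45 (SD, n = 2) and 219 ± 42.4 (SD, n = 3) in PFC.

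The interaction of Per1 was -1.39 ± 0.19 (log2, SE), with an adjusted p of 0.0107 in the edgeR quasi-likelihood test over 14579 genes. It was 1 of 14579 genes called, or 0.00686%. Within HC the log2 fold change of Per1 was -1.01 ± 0.13, a fall that passed (adjusted p of 0.00311 in edgeR). It was also the only gene called in that arm, 0.00686% of those tested. The PFC difference of 0.38 ± 0.14 did not pass (edgeR adjusted p = 0.604). Unstressed NAIVE mice of the same experiment had 127 and 92.3 CPM in HC and 138 and 166 CPM in PFC, so the drug-treated HC libraries lay at the level of the lower NAIVE HC library. The interaction stayed between -1.51 and -1.23 when each of the 11 libraries was left out in turn. Leaving out PFC CUMS 1 gave an adjusted p in edgeR of 0.197. It was 0.151 when PFC CUMS 2 was left out, 0.0575 for HC CUMS 3 and 0.0631 for HC CUMS_M 1, and it ran from 0.00198 to 0.0488 in the other 7 cases. The HC difference itself also lost its call without HC CUMS_M 1 (edgeR adjusted p = 0.0632).

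**Figure D1:**
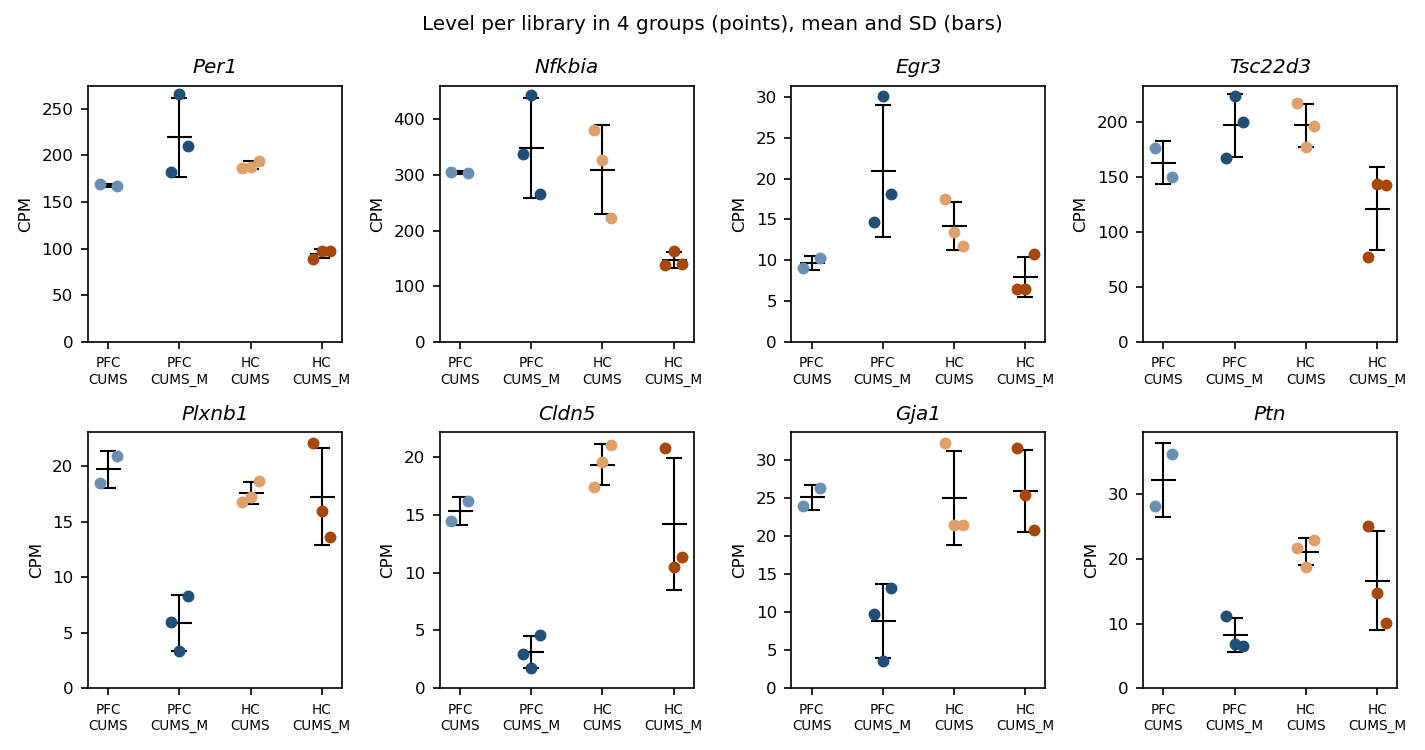
Level in CPM (linear axis from 0) of 8 genes in each library of the 4 groups; points are libraries, and bars are the group mean and SD (n = 2 in PFC CUMS, 3 elsewhere). Per1 is lower in the 3 HC CUMS_M libraries than in HC CUMS. It is higher in the 3 PFC CUMS_M libraries than in PFC CUMS, although that difference alone did not pass. Plxnb1, Cldn5, Gja1 and Ptn are low in PFC CUMS_M.

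Promoter windows are shown for Per1 and for 3 early genes of the lists described next, all with an interaction below 0, to set the one called gene beside genes with a full cAMP response element (CRE). These 3 were chosen after their values were seen. RefSeq promoter windows of GRCm38.p6 (250 bases before to 50 after an annotated start) were searched on both strands for CRE (TGACGTCA), its 5-base core (TGACG, which every CRE also contains) and the E-box (CACGTG) that clock factors bind. The 250 bases before each start are printed 5′ to 3′ on the gene's strand, with these motifs in capitals. Per1 has 2 annotated starts, at the ends of chr11:69098699-69098948 and chr11:69099902-69100151 on the plus strand. The printed bases of Btg2, an antiproliferative early gene, of Dusp1, a MAP kinase phosphatase, and of Plk2, a polo-like kinase, are chr1:134079156-134079405 (minus strand), chr17:26508473-26508722 (minus strand) and chr13:110394794-110395043 (plus strand).
Per1 first start: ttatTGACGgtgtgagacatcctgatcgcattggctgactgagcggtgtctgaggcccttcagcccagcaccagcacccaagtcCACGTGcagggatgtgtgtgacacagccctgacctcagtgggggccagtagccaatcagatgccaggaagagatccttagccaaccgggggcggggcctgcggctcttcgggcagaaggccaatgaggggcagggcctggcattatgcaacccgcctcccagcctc
Per1 second start: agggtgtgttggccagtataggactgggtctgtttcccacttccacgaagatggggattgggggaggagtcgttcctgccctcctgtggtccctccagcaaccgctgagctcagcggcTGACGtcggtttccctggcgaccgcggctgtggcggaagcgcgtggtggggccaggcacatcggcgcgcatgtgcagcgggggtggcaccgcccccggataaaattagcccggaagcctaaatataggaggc
Btg2: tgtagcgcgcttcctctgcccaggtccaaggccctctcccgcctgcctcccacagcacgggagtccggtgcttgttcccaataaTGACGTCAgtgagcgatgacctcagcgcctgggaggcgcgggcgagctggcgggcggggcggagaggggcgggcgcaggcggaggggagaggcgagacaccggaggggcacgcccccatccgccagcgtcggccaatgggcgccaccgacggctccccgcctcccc
Dusp1: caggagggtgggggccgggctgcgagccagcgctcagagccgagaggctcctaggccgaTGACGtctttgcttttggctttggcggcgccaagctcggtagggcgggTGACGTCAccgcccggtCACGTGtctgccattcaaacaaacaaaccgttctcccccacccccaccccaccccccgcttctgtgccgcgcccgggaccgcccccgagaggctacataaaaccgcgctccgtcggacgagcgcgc
Plk2: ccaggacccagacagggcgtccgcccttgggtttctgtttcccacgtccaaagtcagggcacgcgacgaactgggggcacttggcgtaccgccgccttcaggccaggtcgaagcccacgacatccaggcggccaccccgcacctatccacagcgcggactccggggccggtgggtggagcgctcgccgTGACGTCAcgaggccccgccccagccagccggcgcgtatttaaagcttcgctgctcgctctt
The 250 printed bases of the first Per1 window hold 1 CRE core and 1 E-box. Those of the second hold 1 CRE core, and neither holds a full CRE. The 50 bases after each start were not counted for Per1. The shares that follow are over whole windows of 300 bases, so they are not of the same length. A full CRE is in 1.79% of all 32851 windows, a CRE core in 20.8% and an E-box in 7.15%. Of 38 tested AP-1, early and phosphatase genes, 32 had a window, and 6 of these held a full CRE (Btg2, Dusp1, Dusp8, Maff, Plk2 and Ppp1r15a). Counted by window, 6 of their 41 windows (14.6%) held a full CRE, 28 (68.3%) a CRE core and 6 (14.6%) an E-box. The glucocorticoid response element (AGAACA, any 3 bases, TGTTCT) was in none (0) of their windows and in 0.00913% of all windows. A match is a description of letters in a window.

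Immediate early genes were lower in HC CUMS_M than in HC CUMS and mostly level or slightly higher in PFC CUMS_M, although none (0) of them passed the adjusted test one by one. Of 20 Egr, Nr4a, Klf and Ier early genes, 17 had an interaction below 0 at an unadjusted p under 0.05 and none (0) had one above, against 1.22% of all tested genes below 0 and 2.25% above. Their median interaction was -1.22, made of a median of -0.96 in HC and 0.25 in PFC, where all 14579 genes had medians of 0.01, 0.01 and 0.02. Of all 14579 genes, 7139 had an interaction below 0 and 7440 had one above. In HC, 14 of the 20 had all CUMS_M libraries below all CUMS libraries, against 4.27% of tested genes. In PFC, 5 had all CUMS_M libraries above both CUMS libraries, against 8.98%. Arc and Nr4a3 were the 2 members with an interaction above 0 (0.49 and 0.44). The count of 17 became 6 without PFC CUMS 2, 11 without HC CUMS 1 and 9 with the other-cell marker level as a covariate, which moved the median to -0.76.

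Egr3, a zinc finger factor induced by activity and receptor signalling, had the smallest p of that list. Its level was 17.5, 13.4 and 11.7 CPM in HC CUMS and 6.47, 6.53 and 10.8 CPM in HC CUMS_M. In PFC it was 9.01 and 10.3 CPM in CUMS and 14.7, 30.1 and 18.1 CPM in CUMS_M. The groups did not overlap in either region, and they stood in opposite order. The interaction was -1.96 ± 0.49 (log2, SE, edgeR adjusted p = 0.999). Egr1, its close relative, was at 2699, 2113 and 1276 CPM in HC CUMS and 1019, 1104 and 738 CPM in HC CUMS_M, and at 2031 and 1612 CPM in PFC CUMS and 2722, 3513 and 2037 CPM in PFC CUMS_M. Again neither pair of groups overlapped, although the lowest treated PFC library exceeded the higher untreated one by only a few CPM. Ier2, a small nuclear early response protein, was at 330, 270 and 184 CPM in HC CUMS against 121, 134 and 80.7 CPM in HC CUMS_M, and at 239 and 232 CPM in PFC CUMS against 295, 416 and 261 CPM in PFC CUMS_M. Plk2 was at 11.2, 9.12 and 8.71 CPM in HC CUMS and 3.87, 3.45 and 3.74 CPM in HC CUMS_M, so these groups were apart, whereas the PFC groups, at 9.09 and 9.09 CPM and at 6.58, 8.57 and 10.9 CPM, overlapped.

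AP-1 is the dimeric factor formed by Fos, Jun and related proteins. All 9 tested AP-1 genes had an interaction below 0, with a median of -1.25 (-1.10 in HC, 0.15 in PFC), and 8 of 9 had non-overlapping lower levels in HC CUMS_M, against 4.27% of tested genes. Fos was at 2366, 1555 and 1136 CPM in HC CUMS and at 782, 854 and 708 CPM in HC CUMS_M. The PFC libraries had 1891 and 1656 CPM in CUMS and 2041, 3352 and 1773 CPM in CUMS_M, so these groups overlapped and PFC CUMS_M 2 was the highest of the 11. Fos, Junb, Fosb and Maff had an unadjusted p under 0.05, where 1.22% of tested genes had one below 0, with interactions of -1.54, -1.24, -1.89 and -2.12. That count of 4 was 0 without PFC CUMS 2, 2 without PFC CUMS 1, PFC CUMS_M 2 or HC CUMS 1, 7 without HC CUMS 3, 7 in the fit of the 11 libraries alone and 1 with the covariate. The 3 HC CUMS libraries spread widely in these genes, with HC CUMS 3 the lowest.

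**Figure D2:**
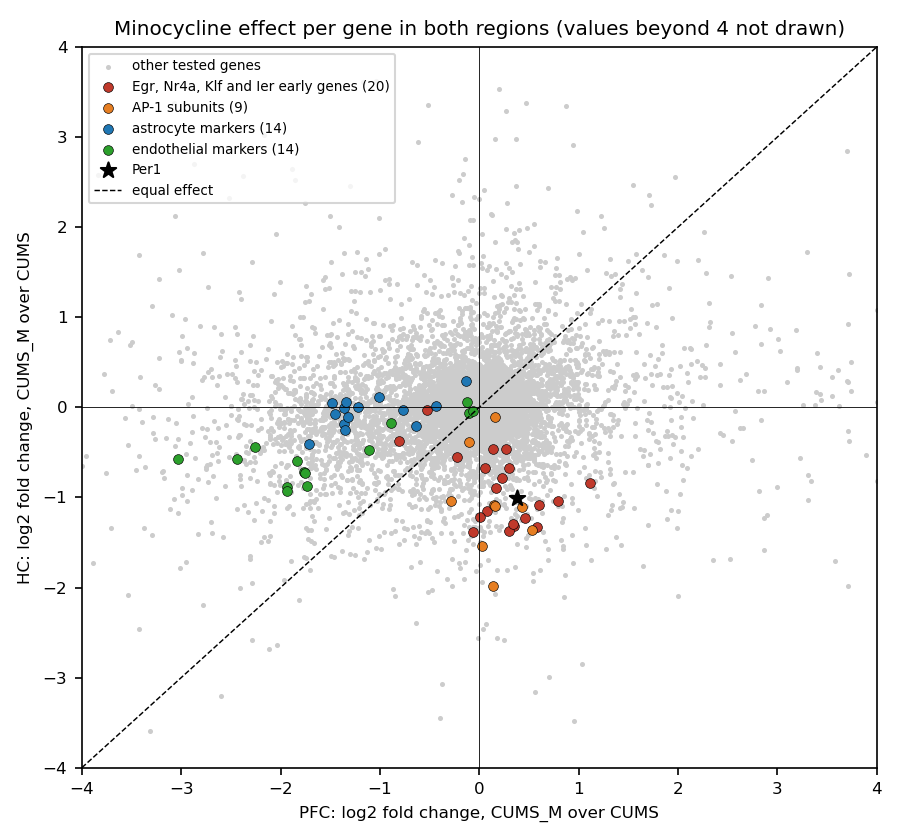
Each point is a tested gene, with its log2 fold change from CUMS to CUMS_M in PFC on the horizontal axis and in HC on the vertical axis; colours mark 4 gene lists and the star marks Per1. Points on the dashed line have equal effects; 18 of the 20 early genes lie below it (median HC -0.96, PFC 0.25), and all 14 astrocyte markers lie above it (median HC -0.02, PFC -1.33).

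The dual-specificity phosphatases, which switch off MAP kinases and are themselves early genes, followed in part. Of 9, Dusp1, Dusp6 and Dusp8 had an interaction below 0 at an unadjusted p under 0.05, against 1.22% of all tested genes. The list median was -0.47. Dusp1 was at 950, 702 and 565 CPM in HC CUMS and 321, 323 and 247 CPM in HC CUMS_M, against 924 and 838 CPM in PFC CUMS and 912, 1452 and 717 CPM in PFC CUMS_M. Its HC groups were apart and its PFC groups overlapped. Dusp6, which acts on ERK, had a narrower spread: 604, 660 and 622 CPM against 560, 579 and 490 CPM in HC, and 620 and 716 CPM against 822, 831 and 736 CPM in PFC. Those groups were apart in both regions in opposite order, with an interaction of -0.47 ± 0.14 (edgeR adjusted p = 0.999). The count of 3 became 5 without PFC CUMS_M 3 and 2 without PFC CUMS_M 2.

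Glucocorticoid-responsive genes came next, and Per1 is a member of that list. Of 24, 9 had an interaction below 0 at an unadjusted p under 0.05 and none (0) above, against 1.22% and 2.25% of all tested genes. The 9 were Per1, Rhob, Nfkbia, Tsc22d3, Cdkn1a, Dusp1, Sgk1, Cebpd and Fkbp5. The list median was -0.25 (-0.42 in HC, 0.00 in PFC), and 12 of 24 had non-overlapping lower levels in HC CUMS_M, against 4.27% of tested genes. The median was -0.39 without PFC CUMS 2 and -0.14 without PFC CUMS_M 3. The shared members Dusp1 and Nfkbia are also early or NF-kB feedback genes, so the lists are not separate evidence. Tsc22d3, the leucine zipper protein GILZ, was at 217, 178 and 196 CPM in HC CUMS and 77.4, 144 and 142 CPM in HC CUMS_M, and at 177 and 150 CPM in PFC CUMS and 167, 224 and 200 CPM in PFC CUMS_M. Its HC groups were apart, with HC CUMS_M 1 the lowest, and its PFC groups overlapped. Fkbp5, a chaperone that restrains the glucocorticoid receptor, was at 132, 136 and 202 CPM in HC CUMS and 110, 115 and 123 CPM in HC CUMS_M, while the PFC groups, at 131 and 119 CPM and at 115, 141 and 123 CPM, overlapped. Klf15, Klf9 and Pdk4, other genes of the list, had interactions above 0 (1.16, 0.62 and 0.59), none at an unadjusted p under 0.05. Among 15 other core clock genes, a list that does not hold Per1, Per2 alone had an unadjusted p under 0.05 (interaction -1.03 ± 0.38), against 1.22% of tested genes below 0. That count was 0 without PFC CUMS_M 3 and 2 without HC CUMS 1. Arntl and Bhlhe40, an activator and a repressor of the clock, stood at 0.01 and 0.00.

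NF-kB feedback genes and cytokines were below 0 in 18 of 20 cases, against 7139 of 14579 tested genes, with a smaller median of -0.42. Nfkbia encodes the inhibitor that holds NF-kB in the cytoplasm. It was at 380, 326 and 223 CPM in HC CUMS and 138, 163 and 141 CPM in HC CUMS_M, and at 306 and 303 CPM in PFC CUMS and 337, 444 and 265 CPM in PFC CUMS_M. The HC groups were apart and the PFC groups overlapped, with an interaction of -1.27 ± 0.31 (edgeR adjusted p = 0.999). Nfkbia was the second gene called by the DESeq2 Wald test, which called 2. Tnf, the inflammatory cytokine, was at 47.8, 42.5 and 25.2 CPM in HC CUMS and 18.3, 17.8 and 12.5 CPM in HC CUMS_M, and at 28.3 and 35.4 CPM against 33.8, 56.0 and 33.6 CPM in PFC. It too was apart in HC and overlapped in PFC. Il1b, which encodes interleukin-1 beta, was lower without overlap in HC CUMS_M (11.3, 15.6 and 24.1 CPM against 42.1, 31.1 and 31.3 CPM) and also without overlap in PFC CUMS_M (30.8, 44.3 and 39.8 CPM against 49.1 and 47.8 CPM), with an interaction of -0.69 ± 0.35. Nfkbia, Tnf, Nfkbiz and Nlrp3 made up the 4 members at an unadjusted p under 0.05, all below 0, against 1.22% of tested genes. Without PFC CUMS 1 there were 3, and without HC CUMS 3 there were 7. With a replicate block by treatment and number or without the filter on low counts there were 8. Of 15 integrated stress response genes, 10 were below 0, 3 of them (Cebpb, Ddit3 and Atf4) at an unadjusted p under 0.05, against 1.22% of tested genes. That count of 3 was 0 without PFC CUMS 2 and 0 with the covariate.

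The genes of smallest p below 0 held, beside Per1, genes of several kinds, among them Cited2, Egr3, Rhob, Nfkbia, Dus2, Arrdc3, Plk2, Dusp6, Malat1 and Hmgn1. Apart from Per1 none passed, and those named here had an edgeR adjusted p of 0.999. Cited2, a transcriptional co-regulator that binds CBP and p300, was at 163, 122 and 122 CPM against 92.1, 108 and 86.8 CPM in HC, and at 111 and 112 CPM against 151, 142 and 133 CPM in PFC. Its groups were apart in both regions, in opposite order. Dus2 shares 14.1% of its exon bases with a gene on the other strand, and the strand setting of the counting is not given in the sources used here, so its counts may hold reads of that gene. In all, 46 of 14579 genes (0.316%) were lower without overlap in HC CUMS_M and higher without overlap in PFC CUMS_M, among them Per1, Cited2, Egr3, Egr1, Ier2, Zfp36 and Dusp6. The opposite order was found in 38 genes (0.261%).

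On the other side, Plxnb1, a semaphorin receptor, had the smallest p of the genes with an interaction above 0. It was at 18.5 and 20.9 CPM in PFC CUMS and 6.0, 3.33 and 8.28 CPM in PFC CUMS_M, and at 16.7, 17.2 and 18.7 CPM in HC CUMS and 22.1, 16.0 and 13.6 CPM in HC CUMS_M. The PFC groups were far apart and the HC groups overlapped. Its interaction was 1.70 ± 0.36 (edgeR adjusted p = 0.733). Cldn5, the tight junction protein of brain endothelium, was at 14.5 and 16.1 CPM in PFC CUMS and 3.0, 1.79 and 4.62 CPM in PFC CUMS_M, against 17.4, 19.6 and 21 CPM in HC CUMS and 20.7, 10.4 and 11.4 CPM in HC CUMS_M. Ptn, a heparin-binding growth factor made by glia, was at 28.2 and 36.3 CPM in PFC CUMS and 11.2, 6.79 and 6.54 CPM in PFC CUMS_M, against 21.7, 18.8 and 22.9 CPM in HC CUMS and 25.1, 14.8 and 10 CPM in HC CUMS_M. For both, the PFC groups were apart and the HC groups overlapped.

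Within PFC, Plxnb1, Cldn5 and Ptn were the 3 genes called (0.0206% of those tested), each with an edgeR adjusted p of 0.0410. They fell by 1.72, 2.25 and 1.97 on the log2 scale. Their interactions of 1.70, 1.81 and 1.63 did not pass, so a difference from HC is not shown for any of them. The number called in PFC was 0 without PFC CUMS 1, PFC CUMS 2, PFC CUMS_M 2, HC CUMS 1, HC CUMS 2, HC CUMS 3 or HC CUMS_M 2, 5 without PFC CUMS_M 1, 9 without PFC CUMS_M 3 or HC CUMS_M 3, and 10 without HC CUMS_M 1. It was 0 with the other-cell covariate, which moved the PFC differences to -1.14 for Plxnb1, -1.38 for Cldn5 and -1.52 for Ptn. Cldn5 is itself a marker in that covariate, so its shift is partly built in. The covariate also holds choroid plexus markers, which were high in PFC CUMS_M 3 alone among the PFC libraries. Of the other genes of smallest p, Sptbn1, a spectrin of the membrane skeleton, was at 67.2 and 70.6 CPM in PFC CUMS and 40.2, 31.2 and 45.1 CPM in PFC CUMS_M, with overlapping HC groups. Scg3, a granule protein of secretory cells, was at 25.3 and 26.4 CPM against 12.4, 5.48 and 6.37 CPM in PFC. Adcyap1r1, the receptor of the peptide PACAP, was at 11.5 and 13.6 CPM against 4.93, 3.69 and 4.27 CPM. Vps13b, a lipid transfer protein of the Golgi, differed from these by being apart in both regions: 53.4, 45.6 and 51.6 CPM against 68.0, 63.3 and 66.7 CPM in HC, and 71.2 and 69.7 CPM against 54.6, 48.8 and 60.6 CPM in PFC.

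Col6a2, Grin3a and Klk6 rank among these genes on few counts. Col6a2, a collagen chain, had 4, 5 and 2 counts in HC CUMS and 29, 15 and 23 in HC CUMS_M, and 9 and 6 counts in PFC CUMS and 0, 1 and 0 in PFC CUMS_M. Grin3a, an NMDA receptor subunit, had 22 and 19 counts in PFC CUMS and 0, 0 and 0 in PFC CUMS_M, and 5, 11 and 17 in HC CUMS against 19, 10 and 3 in HC CUMS_M. The drug-treated PFC libraries were thus empty or nearly so for both genes. Klk6, a secreted protease of oligodendrocytes, had 14 and 12 counts in PFC CUMS, 1, 0 and 0 in PFC CUMS_M, 1, 0 and 2 in HC CUMS and 19, 5 and 0 in HC CUMS_M. No fold is given for a group at 0, and PFC NAIVE also had 0 and 0 counts of Grin3a.

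Astrocyte markers showed the interaction above 0 as a group. All 14 were above 0, against 7440 of 14579 tested genes, and 9 of them had an unadjusted p under 0.05, against 2.25%. The median of 1.20 came from PFC (-1.33) and not from HC (-0.02). In PFC, 11 of 14 had all CUMS_M libraries below both CUMS libraries, against 12% of tested genes. Gja1, the gap junction protein connexin 43, was at 23.9 and 26.3 CPM in PFC CUMS and 9.77, 3.57 and 13.2 CPM in PFC CUMS_M, and at 32.1, 21.4 and 21.4 CPM in HC CUMS and 31.5, 25.3 and 20.8 CPM in HC CUMS_M. Aqp4, the water channel of astrocyte endfeet, was at 11.6 and 10.1 CPM against 4.45, 1.91 and 5.32 CPM in PFC, with overlapping HC groups. In both genes PFC CUMS_M 2 was the lowest of the 11 CUMS and CUMS_M libraries. Summed over the list, PFC CUMS had 977 to 1099 CPM, PFC CUMS_M 434 to 698, HC CUMS 681 to 823 and HC CUMS_M 567 to 868. PFC NAIVE had 377 to 382 CPM, below all the other groups. In sorted cells, fewer cells of a type and less RNA per cell cannot be told apart in these sums. The count of 9 was 4 without PFC CUMS 2, 4 with the covariate, which holds these markers, and 5 with a replicate block by number.

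Vascular, oligodendrocyte and neuron markers had medians of the same sign, with fewer members at an unadjusted p under 0.05. All 14 endothelial markers were above 0 (median 1.02, from -0.58 in HC and -1.76 in PFC). Cldn5, Flt1 and Tek had an unadjusted p under 0.05, where 2.25% of tested genes had one above 0. That count of 3 was 1 without PFC CUMS 2, PFC CUMS_M 2, HC CUMS 1 or HC CUMS_M 1, and 6 without HC CUMS_M 2, and the median was 0.64 without PFC CUMS_M 2 and 0.65 without HC CUMS_M 1. Flt1, a receptor of VEGF, was at 35.8 and 41.8 CPM in PFC CUMS and 10.5, 7.26 and 14.6 CPM in PFC CUMS_M, and at 41.3, 42.1 and 58.5 CPM in HC CUMS and 43.1, 23.5 and 26.9 CPM in HC CUMS_M. Its PFC groups were apart and its HC groups overlapped. Mural cell markers had medians of -1.03 in HC and -1.63 in PFC, and 10 of 12 had an interaction above 0. Their median interaction was 0.72, and 0.28 without HC CUMS_M 1. All 14 oligodendrocyte lineage markers were above 0 (median 1.33), and 13 of them had PFC CUMS_M below PFC CUMS without overlap, against 12% of tested genes. Their median was 0.39 without HC CUMS_M 1 and 1.74 without HC CUMS_M 2. The number with an unadjusted p under 0.05 was 1 (Ugt8a), 5 without HC CUMS_M 2, 2 without PFC CUMS_M 3 and 0 in 8 of the other leave-outs. Of 15 neuron markers, 12 were above 0, with a median of 0.73 that was 0.26 without PFC CUMS_M 3 and 0.37 without HC CUMS_M 2. The covariate was built from 7 lists, namely these, the astrocyte, the choroid plexus and the ependymal markers. With it the medians were 0.82 for astrocytes, 0.31 for endothelium, 0.25 for oligodendrocytes and 0.45 for neurons. The mean level over the 7 lists was 2.30 and 2.51 log2 CPM in PFC CUMS and 1.5, 0.858 and 2.15 in PFC CUMS_M. In HC it was 3.03, 2.90 and 3.38 in CUMS and 3.22, 2.54 and 2.71 in CUMS_M. Choroid plexus markers alone averaged 3.06 to 4.74 log2 CPM in HC CUMS and -1.38 to -1.34 in PFC CUMS. The mean over the 7 lists is thus no measure of how the regions differ in the other lists. The part of other-cell markers in the results for Plxnb1, Ptn, Scg3 and the other genes above was not tested beyond the covariate.

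**Figure D3:**
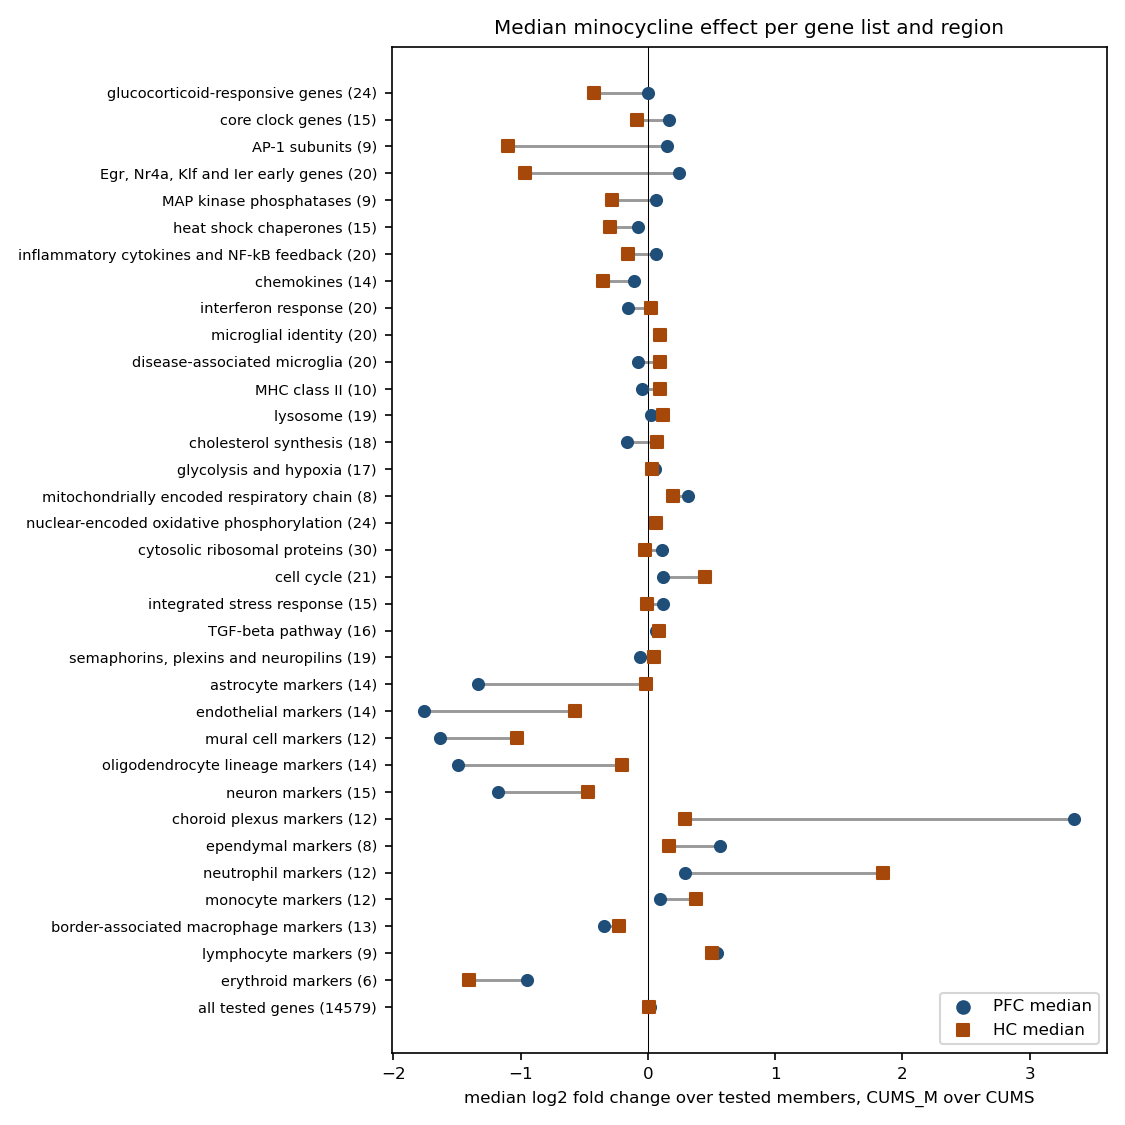
Median log2 fold change from CUMS to CUMS_M over the tested members of each list (number in brackets), with circles for PFC and squares for HC; members with a group at 0 counts are set at a floor of 3 counts. The early gene and AP-1 lists are lower in HC, the astrocyte, endothelial and oligodendrocyte lists are lower in PFC, and all tested genes are at 0.01 in HC and 0.02 in PFC.

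Several marker lists moved with single libraries. The median interaction of ependymal markers ran from -1.47 without PFC CUMS 2 to 1.78 without PFC CUMS_M 3. For erythroid markers it ran from -1.27 without PFC CUMS 2 to 0.24 without PFC CUMS 1. For border-associated macrophages it ran from -0.26 without HC CUMS_M 2 to 0.59 without PFC CUMS_M 3. Lymphocyte (-0.49 to 0.33) and monocyte (-0.02 to 0.90) medians also changed sign. Choroid plexus markers had a median interaction of -2.96 with members at 0 counts set at the floor of 3 counts over the group (-6.09 as fitted), and 0.31 without PFC CUMS_M 3. Their summed level was 33.5 to 35.2 CPM in PFC CUMS and 9.53 to 788 CPM in PFC CUMS_M, against 759 to 2597 CPM in HC CUMS and 1260 to 2102 CPM in HC CUMS_M, and none (0) of the 12 had an unadjusted p under 0.05, although 6 did without PFC CUMS_M 1, 5 without PFC CUMS_M 2 and 1 without HC CUMS 2. All 12 neutrophil markers were above 0 with a median of 1.55, and none (0) had an unadjusted p under 0.05, although 2 did without PFC CUMS_M 1 and 1 without HC CUMS_M 1. Their summed level ranged from 161 to 445 CPM in HC CUMS, 319 to 2341 CPM in HC CUMS_M, 1682 to 2251 CPM in PFC CUMS and 547 to 4279 CPM in PFC CUMS_M, so the treated groups spanned the untreated ones in PFC. The median was 0.74 without HC CUMS_M 3 and 2.83 without PFC CUMS_M 1.

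**Figure D4:**
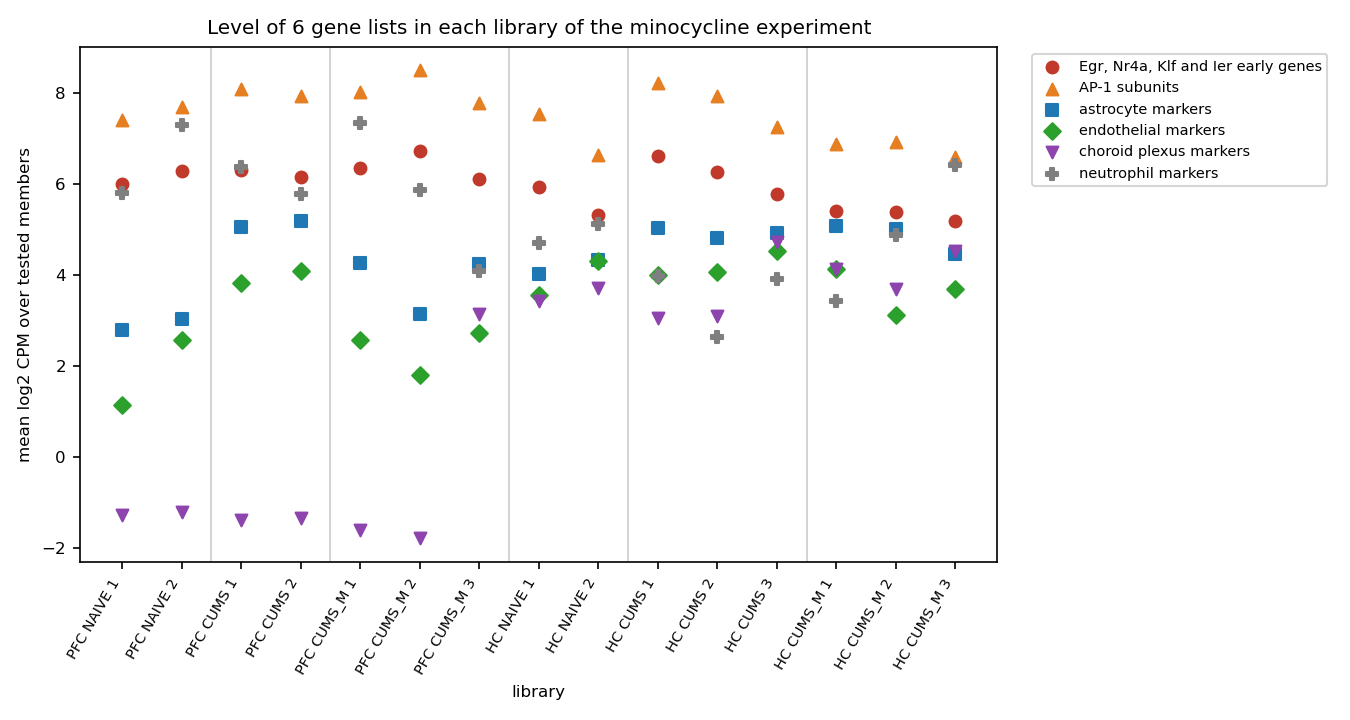
Mean log2 CPM of 6 gene lists in each of the 15 libraries of the minocycline experiment, with grey lines between groups. Of the 11 libraries of CUMS and CUMS_M, the early gene and AP-1 lists are lowest in HC CUMS_M and highest in PFC CUMS_M 2, where astrocyte and endothelial markers are low, and the choroid plexus list is high in PFC CUMS_M 3 alone among the PFC libraries.

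Genes that define microglia had interactions near 0. The 20 microglial identity genes had a median interaction of 0.04, which ran from -0.04 without PFC CUMS_M 3 to 0.08 without HC CUMS_M 3. Cx3cr1, P2ry12 and Tmem119 had interactions of 0.09 ± 0.11, 0.04 ± 0.17 and -0.03 ± 0.13, and the last 2 changed sign when single libraries were left out. Disease-associated microglial genes were above 0 in 18 of 20 cases with a median of 0.16, and none (0) had an unadjusted p under 0.05, although 4 did without PFC CUMS_M 3 and 1 without PFC CUMS 1, HC CUMS 3 or HC CUMS_M 3. Their median ran from 0.06 without HC CUMS 2 to 0.28 without HC CUMS 3. Cytosolic ribosomal proteins were below 0 in 30 of 30 cases with a median of -0.16 and none (0) at an unadjusted p under 0.05, and the median was -0.47 with 8 such members without PFC CUMS 2 and 0.06 without PFC CUMS 1. The 18 cholesterol synthesis genes had a median of 0.25. Sc5d and Cyp51, enzymes of the late pathway, had an unadjusted p under 0.05 (0.86 ± 0.32 and 0.71 ± 0.27), against 2.25% of tested genes above 0. That count of 2 was 5 without PFC CUMS 1, 1 without PFC CUMS 2 and 0 with the covariate, and the median was 0.42 without PFC CUMS 1, 0.38 without HC CUMS_M 3 and 0.15 without PFC CUMS 2. Among semaphorins and their receptors, Plxnb1, Sema3c and Sema6d of 19 had an interaction above 0 at an unadjusted p under 0.05, against 2.25% of tested genes. The list median was 0.24 (0.37 without HC CUMS 3). For Sema3c, a secreted guidance ligand, PFC CUMS had 4.39 and 5.66 CPM and PFC CUMS_M 1.06, 0 and 1.05 CPM. HC CUMS ran from 5.74 to 7.25 CPM and HC CUMS_M from 3.01 to 5.47 CPM. Sema3c was thus lower without overlap in both regions, with log2 fold changes of -0.69 in HC and -2.75 in PFC.

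The other microglial and metabolic programmes had small medians. Of 20 interferon response genes, 17 had an interaction above 0 with a median of 0.22. Usp18, a protease that removes the ubiquitin-like ISG15, was the 1 member at an unadjusted p under 0.05 (0.86 ± 0.37), against 2.25% of tested genes above 0. It was at 7.70 and 11.5 CPM in PFC CUMS and 4.74, 4.64 and 6.02 CPM in PFC CUMS_M, which were apart, while the HC groups overlapped. No (0) member reached that p without PFC CUMS 2, PFC CUMS_M 2, HC CUMS 1 or HC CUMS_M 2. The list median ran from 0.10 without HC CUMS 2 to 0.35 without PFC CUMS_M 3. Heat shock chaperones were below 0 in 13 of 15 cases (median -0.23), and cell cycle genes were above 0 in 17 of 21 (median 0.22, from 0.45 in HC and 0.12 in PFC), with none (0) at an unadjusted p under 0.05 in either list. The heat shock median was -0.03 without HC CUMS 1 and -0.11 without PFC CUMS_M 2. The cell cycle median was 0.04 without PFC CUMS 1 and 0.79 without PFC CUMS 2, and 2 of its members had such a p without PFC CUMS_M 1 and 1 without PFC CUMS 2. Lysosomal genes had a median of 0.11 (0.05 without PFC CUMS 2), with Npc1, a cholesterol exporter of the lysosome, at 0.38 ± 0.14. Nuclear-encoded oxidative phosphorylation, glycolysis and TGF-beta pathway genes had medians of 0.00, 0.01 and 0.03, against 0.01 over all tested genes.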

How the data were processed

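The data are RNA-seq counts per gene of CD11b+ cells. The deposited counts were used as the authors gave them. Per the submitters' processing notes, Trimmomatic 0.36, STAR 2.6.1b, Picard 2.17.1, featureCounts 1.5.3 and DESeq2 1.24.0 were used with mm10/GRCm38. The annotation, strand setting and handling of duplicates are not given in the sources used here. GENCODE M21 gave positions, and 53326 of 53412 identifiers matched a symbol.

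Genes were filtered with filterByExpr (minimum count 10, minimum total 15), leaving 14579, and scaled by TMM. One edgeR 4.0.16 quasi-likelihood model (R 4.3.3) of 6 group means over all 15 libraries of the minocycline experiment, with 9 residual degrees of freedom, gave both arms and the interaction. Benjamini-Hochberg adjustment ran over the 14579 genes, and a gene was called at an adjusted p under 0.05. The fit was tested on simulated data. DESeq2 1.42.0 served as an alternative.

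Named genes are those called, the 12 of smallest p in each direction with a regular symbol, up to 4 members per list at an unadjusted p under 0.05, and 21 fixed genes. Other genes in the text are list members, given as examples. Lists and members were chosen with earlier results of these data known. Each list is described by counts and its median, without a test. Highly similar libraries were looked for and none were found. Alternatives were other scaling, no filter, DESeq2, the 11 libraries alone, replicate blocks, an other-cell covariate (mean of 7 marker lists) and leaving out each library. Figures used matplotlib 3.10.9. A few of the named genes are left out of the text.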

Additional observations from a re-analysis of the deposited data

Results flagged for a closer look

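Per1 met the criterion for an effect that differs between regions: its log2 interaction of -1.39 passed the test of the difference itself (edgeR quasi-likelihood test, adjusted p = 0.0107), with lower levels in 3 of 3 HC CUMS_M libraries and higher levels in 3 of 3 PFC CUMS_M libraries than in any CUMS library of the same region. That order was found in 46 of 14579 genes (0.316%), and the PFC difference of Per1 alone did not pass (edgeR adjusted p = 0.604).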

How the results depend on the processing

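The number of genes called for the interaction was 1, and it was 37 without the filter on low counts (14 below and 23 above 0), 2 with the DESeq2 Wald test, both below 0, and 0 to 1 when a library was left out. The unfiltered edgeR fit had an infinite median prior df against 10.8, so the spread of single genes did not enter most of its tests. Replicate numbers did not pair the libraries: deviations of same-numbered libraries correlated from -0.0472 to 0.0914. The replicate block by number called 2 genes, both below 0 (Per1 and Csrnp1), and that by treatment and number called 4, all 4 below 0 (Csrnp1, Nfkbia, Nfkbiz and Per1). Per1 was called under these 7 alternatives, with an adjusted p of 0.0426 or less. In HC, 1 gene was called, against 31 without the filter, 36 with DESeq2, 3 with the replicate block by number, 3 with the covariate and 0 to 5 without a library (5 without HC CUMS 3, 2 without HC CUMS_M 3, 0 without HC CUMS_M 1). In PFC, 3 were called, against 170 without the filter, 85 with DESeq2, 5 with the 11 libraries alone, 0 with the replicate block by number, 0 with the covariate and 0 to 10 without a library. The cause of these shifts was not tested. The interaction of P2ry12 ran from -0.0742 to 0.14 and that of Tmem119 from -0.15 to 0.0749 over the left-out libraries, and that of Tmem119 was 0.0539 with the replicate block by treatment and number. That of Ttr was 0.13 without PFC CUMS_M 3 and ran down to -7.23 without other libraries. Of the other comparisons of named genes with an alternative, 1209 kept direction and call, 20 gained a call and 36 lost one. These counts pool the interactions with the HC difference of Per1 and the PFC differences of Plxnb1, Cldn5 and Ptn. Among the interactions only Per1 had a call to lose. With 2 PFC CUMS libraries, and 8.62 to 15.3 M counts a library, genes at a few counts could not be resolved.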
